A study of Mus musculus with 4 samples.

Results

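Regulatory T cells with and without neuropilin-1 (Nrp1) were compared, probe set by probe set, for 9 genes that had more RNA in the Nrp1-positive cells: Swap70, Plagl1, Hmgn3, Niban2, Rad51b, Igsf3, Penk, D430019H16Rik and 2310015A10Rik. They are 9 of 18193 genes named by the array's annotation, and 17 of its 45101 probe sets list 1 of them and no other gene. The members were chosen because earlier results of these same arrays put them higher in Nrp1-positive cells, so the Nrp1-positive minus Nrp1-negative differences given here describe them and no test is attached to them. The cells were CD4+ Foxp3+ spleen cells of Balb/c mice with a green fluorescent reporter of Foxp3, sorted for the absence (2 arrays) or presence (2 arrays) of Nrp1. The mice were 4 to 6 weeks old for 3 arrays and 4 to 8 weeks old for Nrp1-negative replicate 1. All 4 arrays share the reporter strain, the organ and the sort for CD4 and Foxp3, and the labels give no number of mice per array, so the spread between arrays may be technical. Nrp1-negative replicate 1 is negative by its title, whereas its source name and cell type read as positive; the title was followed. That array had the lowest Nrp1 intensity of the 4 arrays at all 4 Nrp1 probe sets, for instance 66.3 at 1448944_at, against 586 on Nrp1-negative replicate 2 and 4433 and 3859 on the Nrp1-positive arrays.

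Regulatory T cells restrain immune responses and depend on the transcription factor Foxp3. Neuropilin-1 is a surface coreceptor for semaphorins and vascular endothelial growth factor, and in mice it has been used to separate regulatory T cells that arose in the thymus from those induced outside it. The 9 genes have no common pathway. Swap70 encodes a phosphoinositide-binding protein that links receptor signals to Rac and the actin cytoskeleton, and Niban2 a pleckstrin homology domain protein of the cell periphery. Plagl1 encodes a zinc finger transcription factor and is an imprinted gene, Hmgn3 a nucleosome-binding protein that loosens chromatin, and Rad51b a protein of homologous recombination. Igsf3 encodes a transmembrane protein of the immunoglobulin superfamily, and Penk proenkephalin, the precursor from which enkephalin opioid peptides are cut. D430019H16Rik is listed as a protein-coding gene and 2310015A10Rik as a long noncoding RNA.

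In GRCm38.p6 the members lie on 7 chromosomes, and 3 of them, Rad51b, 2310015A10Rik and D430019H16Rik, are on chromosome 12. Promoter windows of 300 bases, 250 before and 50 after an annotated start, were found for 7 of the 9 genes in the RefSeq table. The windows of Swap70 and Plagl1, the genes that head the set, and of Rad51b and 2310015A10Rik, which lie near each other, are printed 5′ to 3′ on the gene's strand. Swap70 is at chr7:110221453-110221752 (plus), Plagl1 at chr10:13090582-13090881 (plus), Rad51b at chr12:79297032-79297331 (plus, the first of 2 windows) and 2310015A10Rik at chr12:80132795-80133094 (minus). Capitals mark every match, on either strand, to the motifs NFAT (GGAAA), AP-1 (TGANTCA), forkhead (TGTTTAC), ETS (CCGGAAG), Runx (TGTGGT), STAT (TTCNNNGAA) or Sp1 (GGGCGG).
Swap70: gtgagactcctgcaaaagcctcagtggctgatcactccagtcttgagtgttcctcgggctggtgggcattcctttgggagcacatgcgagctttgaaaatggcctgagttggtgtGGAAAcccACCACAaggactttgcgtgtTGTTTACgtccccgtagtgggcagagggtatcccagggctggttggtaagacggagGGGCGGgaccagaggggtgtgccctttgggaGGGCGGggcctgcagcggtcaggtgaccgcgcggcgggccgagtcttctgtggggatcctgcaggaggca
Plagl1: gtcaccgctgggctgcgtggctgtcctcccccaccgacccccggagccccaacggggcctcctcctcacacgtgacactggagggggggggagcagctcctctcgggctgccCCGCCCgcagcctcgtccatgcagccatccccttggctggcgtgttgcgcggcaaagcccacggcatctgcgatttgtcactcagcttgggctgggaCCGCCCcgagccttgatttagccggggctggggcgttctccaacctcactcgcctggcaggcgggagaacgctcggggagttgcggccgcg
Rad51b: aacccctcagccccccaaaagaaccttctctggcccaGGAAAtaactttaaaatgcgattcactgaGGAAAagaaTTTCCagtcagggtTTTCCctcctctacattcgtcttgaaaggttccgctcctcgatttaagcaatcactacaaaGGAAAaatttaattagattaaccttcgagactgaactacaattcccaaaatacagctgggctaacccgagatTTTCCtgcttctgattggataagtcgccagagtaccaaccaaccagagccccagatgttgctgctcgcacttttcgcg
2310015A10Rik: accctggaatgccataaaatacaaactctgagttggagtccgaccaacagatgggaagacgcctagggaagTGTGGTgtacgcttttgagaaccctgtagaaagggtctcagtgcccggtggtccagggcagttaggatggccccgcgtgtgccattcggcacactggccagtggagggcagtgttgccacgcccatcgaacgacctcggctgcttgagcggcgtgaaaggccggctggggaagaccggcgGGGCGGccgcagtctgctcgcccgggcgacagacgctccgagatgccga

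The forkhead letters stood in 1 of the 7 genes' windows, that of Swap70, and in 3.65% of all 32851 windows. Sp1 letters stood in 6 of the 7 genes, against 35.7% of all windows, and in none of the Rad51b windows. NFAT letters stood in 4 of the 7 (Swap70, Rad51b, Igsf3 and D430019H16Rik), against 61.3% of all windows, and Runx letters in 3 (Swap70, 2310015A10Rik and D430019H16Rik), against 16.8%. AP-1, ETS and STAT letters stood in 0 of the 7 genes and in 7.81%, 8.86% and 8.3% of all windows. The base composition also differed among the members, and the Sp1 letters are themselves G and C only. G and C made up 61.3% (Swap70) to 75% (Igsf3) of the windows of the 6 genes with Sp1 letters. They made up 45% of the printed Rad51b window, where the median of all windows was 52.7%. Overlapping matches were each counted, and a match to letters is a description, not a bound site.

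Intensities below are the deposited linear signals after all arrays were brought to 1 trimmed mean, and each difference is the Nrp1-positive array minus the Nrp1-negative array of a replicate number, in log2(intensity + 18.3). A gene is described first by its probe set with the highest mean level. In bulk RNA, fewer cells with a transcript and less transcript per cell cannot be told apart. Replicate 1 and replicate 2 were scaled by the authors to different targets, so the replicate number is treated as a batch with 1 array of either group. Where an array is left out or moved to the other group, the value is instead the difference between group means. Shifts between replicate numbers enter such a value.

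The signalling genes Swap70 and Niban2 were higher on both Nrp1-positive arrays. Swap70 (probe set 1434225_at) had intensities of 724 and 764 on Nrp1-negative replicates 1 and 2 and of 1914 and 1412 on Nrp1-positive replicates 1 and 2. The Nrp1-negative arrays were close together, and the lower Nrp1-positive array stood above both. Its difference was 1.38 in replicate 1 and 0.87 in replicate 2, a mean of 1.13 ± 0.36 (SD, n = 2), or 2.18-fold. The second Swap70 probe set (1423543_at) gave 389.8 and 549.9 on the Nrp1-negative arrays and 1018 and 1287 on the Nrp1-positive arrays, with differences of 1.34 and 1.20. Both Swap70 probe sets thus separated the groups, and the SD of the second was 0.10. Niban2, with 1 probe set (1426812_a_at), had 64.2 and 132 on the Nrp1-negative arrays and 293 and 285 on the Nrp1-positive arrays. The Nrp1-positive arrays were nearly equal, and the Nrp1-negative arrays were 0.87 apart on the log2 scale. Its differences were 1.91 and 1.01, a mean of 1.46 ± 0.64 or 2.76-fold.

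Among the nuclear proteins, Plagl1 had the largest mean difference of the 9 genes, but only at 1 of its 3 probe sets. That probe set (1426208_x_at) had 119.8 and 348 on the Nrp1-negative arrays and 574 and 984 on the Nrp1-positive arrays. The groups did not overlap, and within each group replicate 2 was the higher array. The differences were 2.10 and 1.45, a mean of 1.78 ± 0.46 or 3.43-fold, and the difference was 1.07 without Nrp1-negative replicate 1. The other Plagl1 probe sets lay below the level filter, at 7.62 to 48.9 (1438588_at) and 2.95 to 4.52 (1450533_a_at), and their groups overlapped, with mean differences of −0.26 and −0.03. A probe set whose name ends in _x_at can share probe sequence with other transcripts, and whether this one did was not tested.

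Hmgn3 was higher mainly in replicate 1. Its probe set 1434875_a_at had 200.5 and 278 on the Nrp1-negative arrays and 784 and 478 on the Nrp1-positive arrays, with differences of 1.87 and 0.74 (mean 1.31 ± 0.80, 2.48-fold). At its other probe set (1431777_a_at) the difference was 1.56 in replicate 1 and 0.04 in replicate 2, where the intensities were 145 and 149.5. The groups at that probe set were thus separated by little, with the highest Nrp1-negative array at 145 and the lowest Nrp1-positive array at 149.5. Rad51b went the other way between replicates. Its probe set 1421430_at had 41.2 and 99.1 on the Nrp1-negative arrays and 118 and 329 on the Nrp1-positive arrays, and the differences were 1.20 and 1.56 (mean 1.38 ± 0.26, 2.60-fold), or 0.71 without Nrp1-positive replicate 2 and 0.89 without Nrp1-negative replicate 1. A dimmer Rad51b probe set below the filter (1430486_at) had 33.4 and 39.7 against 47.0 and 62.1, with differences of 0.34 and 0.47. The Rad51b groups did not overlap at either probe set, with the highest Nrp1-negative array at 99.1 and the lowest Nrp1-positive array at 118 at the first.

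Of the surface and secreted proteins, Igsf3 was higher at all 3 probe sets, by amounts that did not match. At 1455048_at the intensities were 139 and 171 on the Nrp1-negative arrays and 488 and 281 on the Nrp1-positive arrays, and the differences were 1.68 and 0.66 (mean 1.17 ± 0.72, 2.25-fold). At 1455049_at they were 147 and 42.9 against 277 and 206, and the differences were 0.83 and 1.88, so the larger one fell in the other replicate. At 1431322_at they were 98.1 and 85.4 against 107 and 119.6, and the differences were 0.11 and 0.41. Penk, with 1 probe set (1427038_at), had the smallest mean difference of the 9. Its intensities were 766 and 1714 on the Nrp1-negative arrays and 1795 and 2144 on the Nrp1-positive arrays. Nrp1-negative replicate 2 came close to Nrp1-positive replicate 1, and the differences were 1.21 and 0.32 (mean 0.76 ± 0.63, 1.70-fold). Without Nrp1-negative replicate 1 the difference of Penk was 0.19, without Nrp1-negative replicate 2 it was 1.34, and with the former counted as Nrp1-positive it was −0.25.

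The genes named after RIKEN clones had, at their representing probe sets, the differences that varied least between replicates among the 9. D430019H16Rik (1455447_at) had 90.6 and 114 on the Nrp1-negative arrays and 232 and 273 on the Nrp1-positive arrays, with differences of 1.20 and 1.14 (mean 1.17 ± 0.04, 2.25-fold). The long noncoding RNA 2310015A10Rik (1439804_at) had 116 and 373 on the Nrp1-negative arrays and 389 and 1376 on the Nrp1-positive arrays, with differences of 1.60 and 1.83 (mean 1.72 ± 0.16, 3.29-fold). Between group means the difference was 0.83 without Nrp1-positive replicate 2, 0.94 without Nrp1-negative replicate 1 and 2.61 without Nrp1-positive replicate 1. These values take in the shifts between replicate numbers. Nrp1-negative replicate 2 lay just under Nrp1-positive replicate 1, so this gene differed by about as much between replicate numbers as between groups. Its other probe set (1447255_at) had 94.0 and 106 against 118 and 177, with differences of 0.28 and 0.66.

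**Figure D1:**
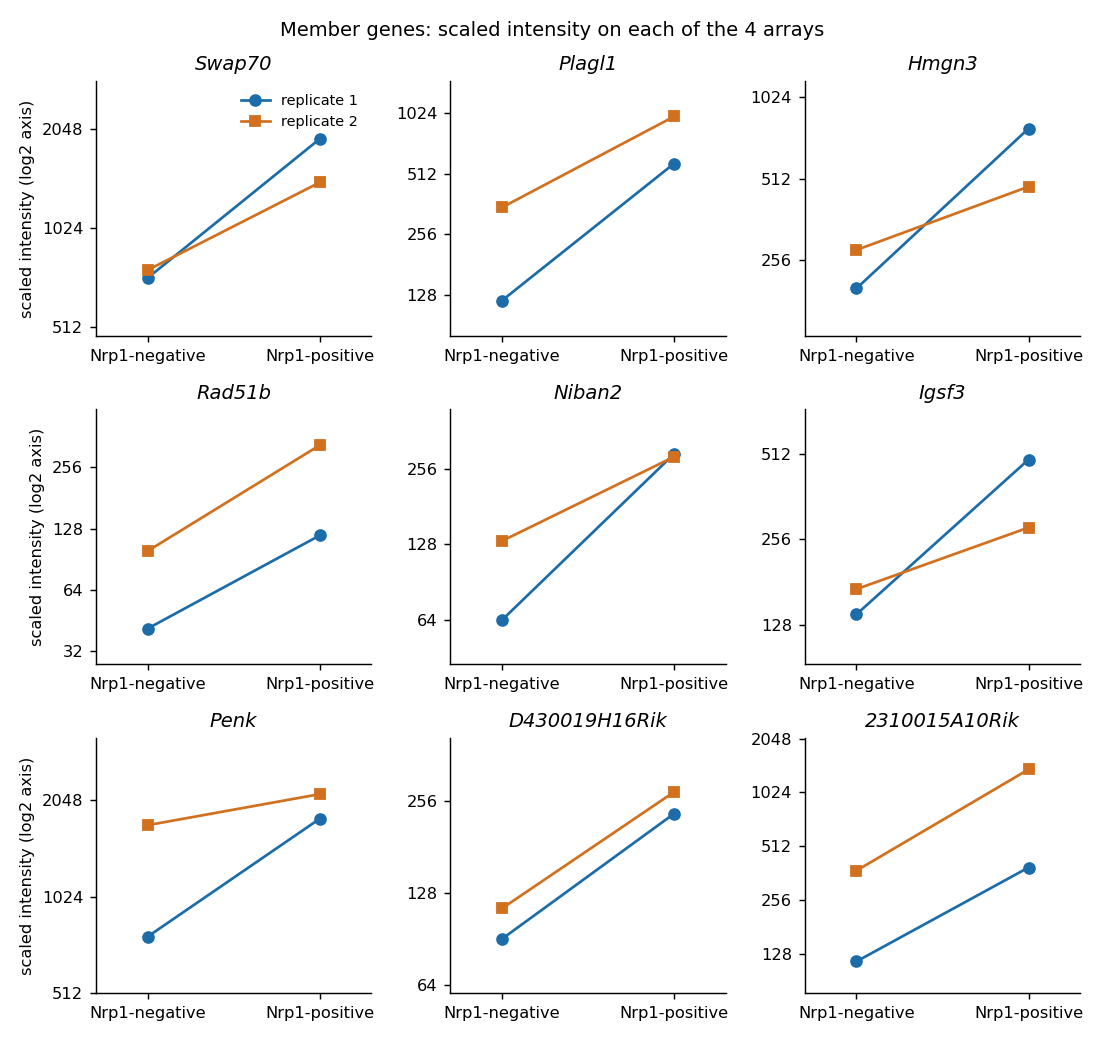
Scaled intensity (log2 axis, with a range of its own for each gene) of the representing probe set of each of the 9 genes on the 4 arrays, where a line joins the Nrp1-negative and Nrp1-positive array of 1 replicate number. Every line rises, and for Penk in replicate 2 it rises least, from 1714 to 2144.

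Over the 9 representing probe sets the difference ranged from 1.20 to 2.10 in replicate 1 (median 1.60) and from 0.32 to 1.83 in replicate 2 (median 1.01), where all 22519 probe sets past the filter had medians of −0.01 and 0.03. Of the 17 member probe sets, 14 passed the filter on low levels, and 15 had groups that did not overlap, Nrp1-positive higher. Among all probe sets past the filter this held for 11.5%. Of the 8 probe sets that do not represent a gene, 6 were higher in Nrp1-positive cells in both replicates, against 28% of all probe sets past the filter, and the other 2 were the dim Plagl1 probe sets. More than 2-fold in both replicates were 6 of the 17, against 0.187% of all probe sets. Because the members were chosen on this contrast, nothing is read from these counts.

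**Figure D2:**
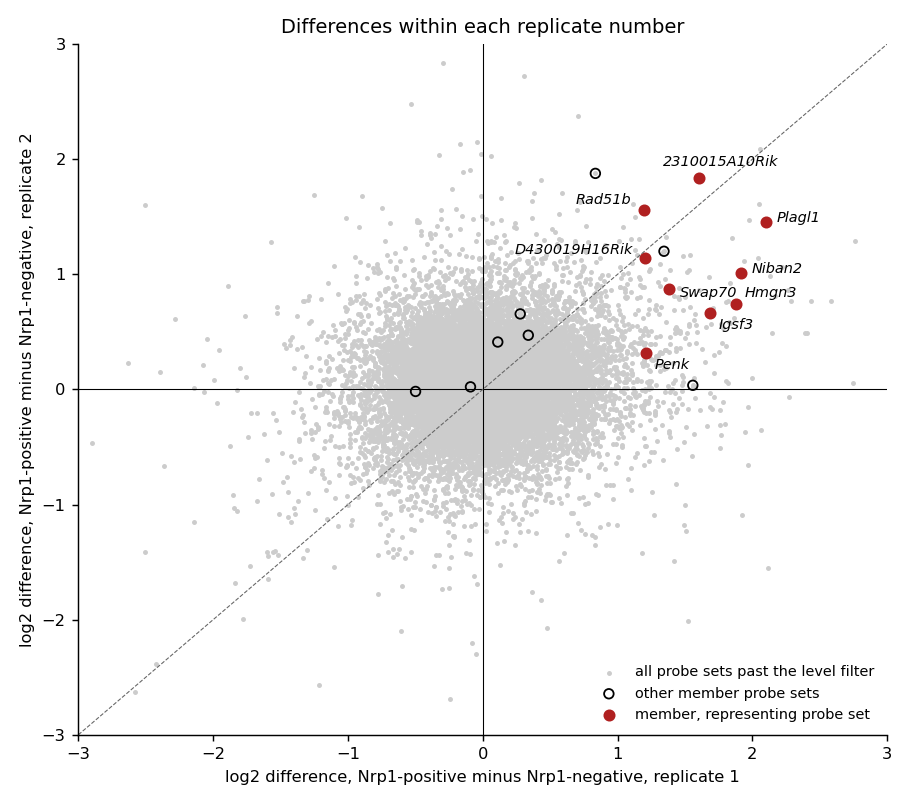
Log2 difference, Nrp1-positive minus Nrp1-negative, in replicate 1 (horizontal) against replicate 2 (vertical) for all probe sets past the filter (grey), the 9 representing probe sets (red) and the 8 other member probe sets (open); 8 grey probe sets beyond 3 on either axis are not drawn. The representing probe sets lie to the upper right, between 1.20 and 2.10 on the horizontal and between 0.32 and 1.83 on the vertical axis, with 7 of 9 below the diagonal.

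The difference was larger in replicate 1 for 7 of the 9 genes, the exceptions being Rad51b and 2310015A10Rik, and for 9 of the 17 member probe sets. Of all 120 probe sets past the filter with a mean difference above 1, 75% were also larger in replicate 1, so nothing particular to the members is read from it. All 9 representing probe sets were higher on Nrp1-negative replicate 2 than on Nrp1-negative replicate 1, by 0.08 (Swap70) to 1.55 (2310015A10Rik), with a median of 0.87. Over all probe sets past the filter that median was −0.04, and 47.2% were higher on replicate 2. Of the 8 other member probe sets, Igsf3 1455049_at (−1.44) and 1431322_at (−0.17) were lower on Nrp1-negative replicate 2. So were Plagl1 1438588_at (−1.36) and 1450533_a_at (−0.01), and the rest were higher. The members were chosen on these same arrays, so nothing particular to them is read from it. Between the Nrp1-positive arrays, 5 of the 9 were higher on replicate 2, against 49.5% of all probe sets past the filter. The range over the 9 was −0.76 (Igsf3) to 1.78 (2310015A10Rik). Nrp1 itself, at the brightest of its 4 probe sets, had 339 and 1223 on the Nrp1-negative arrays and 9344 and 7745 on the Nrp1-positive ones. Its Nrp1-negative arrays were 1.80 apart and its Nrp1-positive arrays −0.27, replicate 2 minus replicate 1. The part of this remaining Nrp1 signal in the members' levels was not tested.

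**Figure D3:**
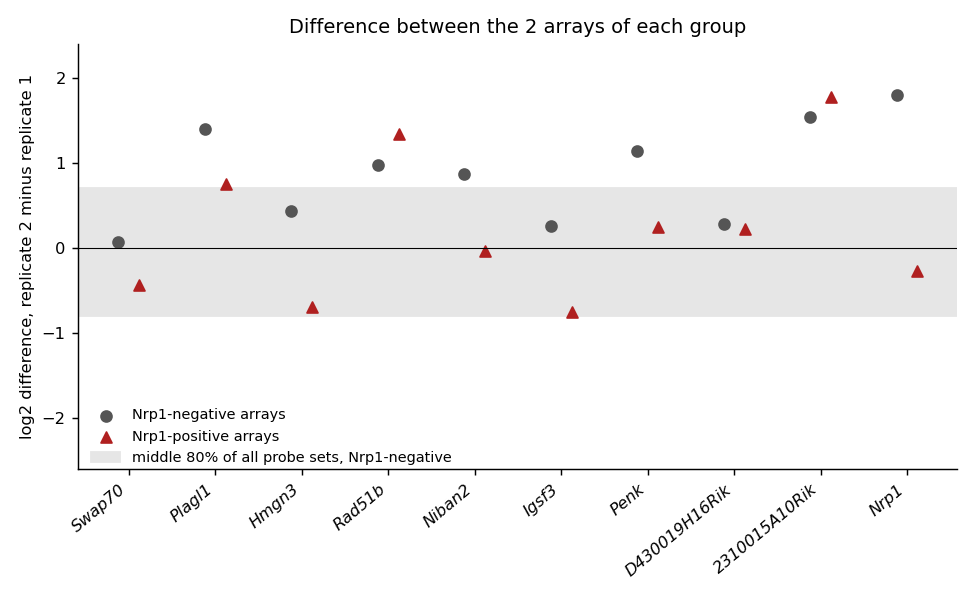
Log2 difference between the 2 arrays of a group, replicate 2 minus replicate 1, for the 9 genes and Nrp1, in Nrp1-negative (circles) and Nrp1-positive cells (triangles); the grey band spans percentiles 10 to 90 of all probe sets past the filter on the Nrp1-negative arrays, from −0.80 to 0.70. All circles lie above 0, and those of Plagl1, Rad51b, Niban2, Penk, 2310015A10Rik and Nrp1 lie above the band.

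Relatives and partners of the members were next read from the fit over all probe sets. Among 55 listed genes, 30 had a probe set past the filter, 17 lay below it and 8 had no probe set of their own. Niban1, the paralogue of Niban2 and a gene of the stress response, was the relative that was higher in Nrp1-positive cells once the replicate number was a block. Niban1 had 1265 and 2056 on the Nrp1-negative arrays and 2853 and 4052 on the Nrp1-positive arrays, so the groups did not overlap. Its difference was 1.16 in replicate 1 and 0.97 in replicate 2, a mean of 1.07 (2.10-fold, standard error 0.12, adjusted p = 0.00572 in limma with the block). Its second probe set gave 0.93 and 0.41 and was not called (adjusted p = 0.161 in limma with the block). In limma without the block Niban1 had an adjusted p = 1 and a standard error of 0.31, and its difference was 0.25 when the array with conflicting labels was moved to the positive group. Niban3, the third family member, differed by −0.55 and 0.21.

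Limma without a block called 0 of 22519 probe sets in either direction (0% higher, 0% lower), with 243 (1.08%) at an unadjusted p below 0.05, and 0 of the 30 relatives. With the block it called 28 higher (0.124%) and 18 lower (0.0799%), and of the relatives 1 higher and 0 lower, with 29 not called. Without the mean-variance trend, the fit with the block called 0 probe sets. Quantile normalisation added to the block was an alternative chosen after seeing the data. With it, 0.364% of probe sets were higher, 0.258% lower, and 3 relatives were higher: Niban1, the tetraspanin gene Cd81 and the imprinted receptor gene Igf2r. Cd81 had 2782 and 3491 on the Nrp1-negative arrays and 5058 and 5152 on the Nrp1-positive arrays, with differences of 0.86 and 0.56. Its adjusted p was 0.0625 in limma with the block and 0.00401 with quantile normalisation too. Igf2r had 5876 and 4873 against 8158 and 6909, with differences of 0.47 and 0.50 and adjusted p-values of 0.180 and 0.0262 in the same 2 limma fits. The median difference over the 30 relatives was −0.01, where that of all probe sets past the filter was 0.01.

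The close relatives of the other members did not pass in limma without the block, with it, or with quantile normalisation too. Def6, the relative of Swap70 in T cells, was nearly flat at 3753 and 3314 against 3978 and 3514, a difference of 0.08 in each replicate. Plagl2 differed by 0.13 and 0.19, and Plag1 lay below the filter. In the list of imprinted genes, which with the PLAG relatives had 13 members, 5 passed the filter, and beside Plagl2 and Igf2r these were Cdkn1c, a cell cycle inhibitor gene (0.27 and 0.97), Meg3 (−0.33 and −0.02) and Impact (0.25 and −0.17). Meg3 had 2 probe sets past the filter that did not match, with mean differences of −0.17 at this one and 0.90 at the other. Hmgn1 differed by −0.14 and −0.35 and Hmgn5 by 0.61 and 0.04, and Hmgn2 had no probe set of its own. Among the recombination genes, Rad51c differed by −0.43 and −0.77 and Rad51d by 0.43 and 0.06, Xrcc3 lay below the filter, and Xrcc2 had no probe set of its own. Over the 4 Rad51d probe sets past the filter the mean difference ranged from −0.27 to 0.28. Igsf8 differed by 0.13 and −0.12 and Ptgfrn by 0.08 and −0.24, both of them relatives of Igsf3, and Cd101 had no probe set of its own. Of the 11 opioid genes beside Penk, 2 passed the filter: the precursor gene Pomc (−0.60 and −0.07) and the receptor gene Oprl1 (−0.48 and 0.02). The precursors Pdyn and Pnoc and the enkephalin receptors Oprd1 and Oprm1 lay below it.

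**Figure D4:**
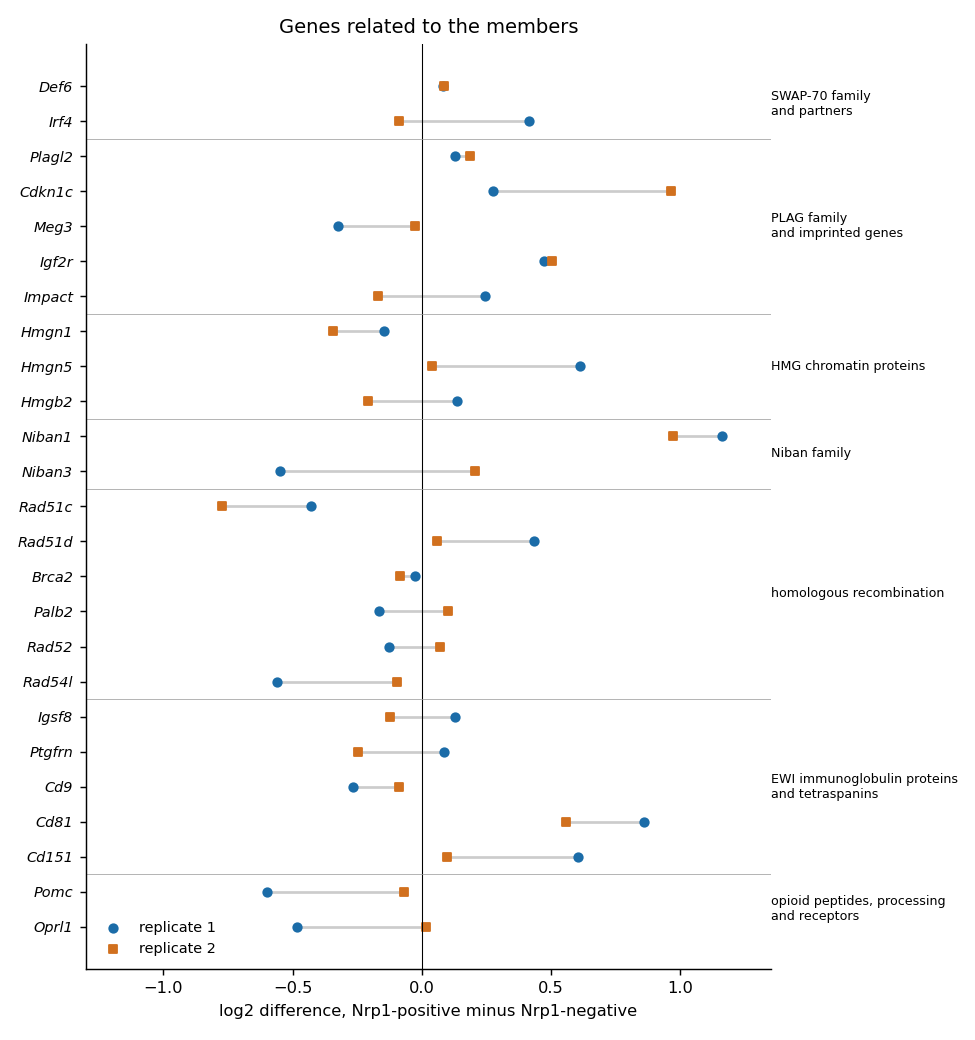
Log2 difference, Nrp1-positive minus Nrp1-negative, in replicate 1 (circles) and replicate 2 (squares) for 25 of the 30 related genes past the filter, by list. Niban1 lies at 1.16 and 0.97, and Def6 at 0.08 in both.

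Rad51b and 2310015A10Rik lie on one stretch of chromosome 12, with other genes between them. Rad51b spans chr12:79297282-79848260, and 2310015A10Rik lies at chr12:80120546-80132844, 272 kb beyond its end. Zfp36l1, an RNA-binding protein gene that promotes mRNA decay, is 7.53 kb from 2310015A10Rik, and Actn1, which encodes an actin cross-linker, is 34.7 kb from it on the other side. Zfp36l1 had 10635 and 11469 on the Nrp1-negative arrays and 14013 and 15849 on the Nrp1-positive arrays, with differences of 0.40 and 0.47 (adjusted p = 0.314 in limma with the block, 0.0115 with quantile normalisation too). Actn1 differed in the other direction, by −0.63 and −0.34 (adjusted p = 0.239 and 0.0638 in the same 2 limma fits), from 7639 and 6239 to 4922 and 4941. Their other probe sets did not all match: the second of Zfp36l1 had 0.81 and 0.47, and those of Actn1 had mean differences of −0.56 and −0.04. Zfyve26, 0.959 kb from Rad51b, differed by 0.04 and 0.22. Within 250 kb of the pair, 9 other genes had a probe set past the filter, with a median difference of 0.03. Limma called 0 of them with the block, against 0.204% of all probe sets, and 0 without it, against 0%. With so few calls among all probe sets, nothing is read from these counts. Zfp36l1 was called only with quantile normalisation added to the block. A noncoding gene between the pair, 9430078K24Rik, lay below the filter and differed by 0.46 and 1.79.

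**Figure D5:**
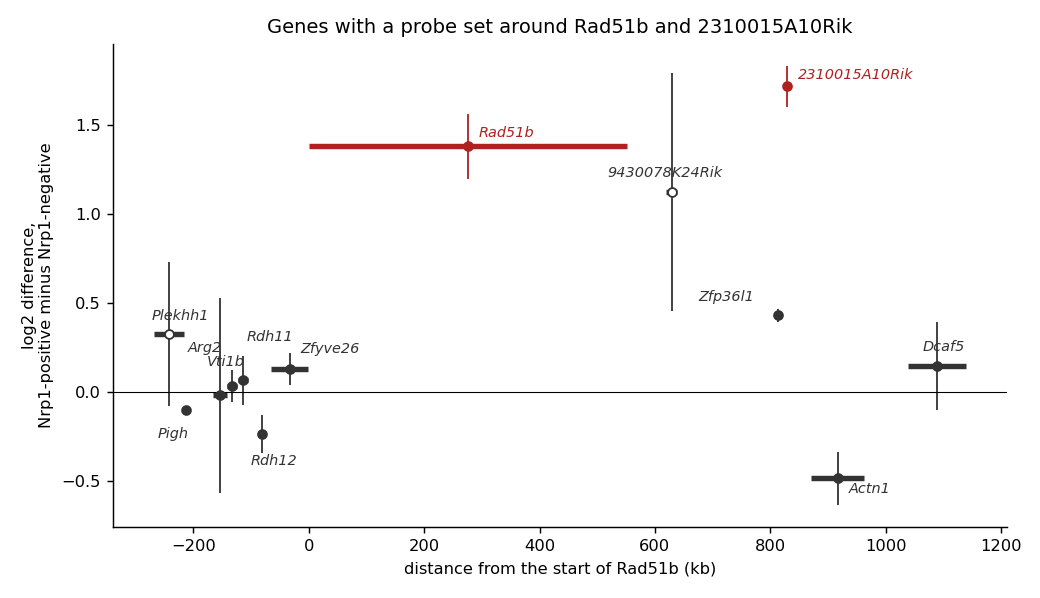
Mean log2 difference, Nrp1-positive minus Nrp1-negative, by distance from the start of Rad51b in kb, for genes with a probe set within 250 kb of Rad51b and 2310015A10Rik; horizontal bars span the gene, vertical lines join replicates 1 and 2, and open points lay below the filter. The members, in red, lie at 1.38 and 1.72, Zfp36l1 at 0.43 and Actn1 at −0.48.

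For all 9 members, the nearest gene on either side with a probe set past the filter gave 17 neighbours that are not members. Of these, 0 were called in limma with the block, against 0.204% of all probe sets, and 0 without it, against 0%, so nothing is read from that. Zfp36l1 was called once quantile normalisation was added to the block. Groups did not overlap with Nrp1-positive higher for 4 neighbours, against 11.5% of all probe sets, and lower for 4, against 8.57%. The differences of the 17 neighbours ranged from −0.48 (Actn1) to 0.54 (Slc22a15), with a median of −0.05. Slc22a15, beside Igsf3, differed by 0.94 and 0.15, and Lrsam1, which overlaps Niban2 in the annotation, by −0.32 and −0.16.

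Outside the set, the genes whose 4 centred log2 values lay closest to those of Swap70, by Euclidean distance over 4 arrays among 10191 genes, were Apcdd1 (0.074), Pctp (0.161) and the Ikaros-family gene Ikzf4 (0.162). Apcdd1 had 42.1 and 48.6 on the Nrp1-negative arrays and 137 and 103 on the Nrp1-positive arrays. Closest to Plagl1 were Klf12 (0.240), Il18r1 (0.452) and Hdac9 (0.454). Klf12 had 25.8 and 117 on the Nrp1-negative arrays and 164 and 279.6 on the Nrp1-positive arrays, with the same high replicate 2 as Plagl1. With 4 arrays such distances only describe these libraries.

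Markers of regulatory T cells and of other spleen cells were read beside the members. Of the 5 Treg markers, Ikzf2 was higher in limma with the block (1.01 and 0.65, adjusted p = 0.0489) and not in limma without it (adjusted p = 1). Tnfrsf18 was higher in limma with the block and quantile normalisation only (0.42 and 0.46, adjusted p = 0.0185, against 0.264 with the block alone). Il2ra (0.26 and 0.28) and Ctla4 (−0.23 and 0.01) were not called in any of the 3 limma fits. Nor were the T cell markers Cd3e (−0.02 and −0.19) and Cd4 (0.04 and 0.06). Foxp3, at 4.45, 36.4, 2.16 and 19.9 on Nrp1-negative replicates 1 and 2 and Nrp1-positive replicates 1 and 2, lay below the filter, so the defining gene of the cells is not shown by its probe set. Of 6 B cell markers, a cell type in which SWAP-70 is abundant, 1 passed the filter (Cd79b, 0.58 and 0.46), and the summed intensity of the list was 374 and 451 on the Nrp1-negative arrays and 431 and 528 on the Nrp1-positive arrays. All 6 myeloid markers passed it, and their sum was 1637 and 2395 on the Nrp1-negative and Nrp1-positive arrays of replicate 1 and 11884 and 11009 on those of replicate 2. Myeloid RNA thus went with the replicate number, and Cd4 did so in the other direction. Cd4 had 2199 and 2261 on the Nrp1-negative and Nrp1-positive arrays of replicate 1, and 723 and 755 on those of replicate 2. The representing probe sets of Plagl1, Rad51b, Penk, D430019H16Rik and 2310015A10Rik were higher on replicate 2 in both groups. The part of such shifts in the members' levels was not tested. The plasmacytoid dendritic cell list had sums of 3403 and 4537 on the Nrp1-negative arrays and 3419 and 3728 on the Nrp1-positive arrays. Of its 5 genes 4 passed the filter, and Siglech, its most specific gene, lay below it. The sums join opposite shifts between replicates 1 and 2. Bst2 had 1097 and 172 on the Nrp1-negative arrays and 995 and 198 on the Nrp1-positive arrays. Ccr9 had 1533 and 3322 on the former and 1489 and 2556 on the latter. Of the CD8 T and NK, erythroid, and endothelial and stromal lists, 2, 0 and 1 genes passed the filter. Of these 0 were called, where limma with the block called 0.204% of all probe sets. No marker with a probe set was at 0 on any array, which does not show that each was expressed. Hba-a1, for instance, was at 4.71 on Nrp1-positive replicate 1, where the array median was 76.7.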

How the data were processed

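RNA of 4 sorted spleen T cell samples had been hybridised to a 1-colour Affymetrix mouse array. The deposited values are linear probe set intensities from MAS5, per the submitters' processing notes, with settings not given in the sources used here. The authors had scaled the arrays of replicate 1 to a trimmed mean of 500.003 and those of replicate 2 to 150.001 (2% trimmed at each end), as the deposited intensities show. All arrays were brought to 500.003 and analysed as log2(intensity + 18.3), the pseudocount being 0.25 of the mean array median, so folds of dim genes are understated.

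Of 45101 probe sets, 64 were controls, 34945 list 1 gene, 932 several and 9160 are unnamed here; 0 symbols changed through the RefSeq table. The 22519 probe sets whose mean level reached percentile 50 were fitted in limma 3.58.1 (R 4.3.3, mean-variance trend, two-sided, Benjamini-Hochberg at 0.05), without a block and, as an alternative, with the replicate number as a block. In simulated arrays with these shifts between replicate numbers and a small preset spread, the fit with the block recovered the planted changes and the fit without it did not. The shifts were put in and the spread was the same for every probe set. That outcome therefore checks the computation only, and nothing is read from it about the calls on the real arrays. Both groups share the numbers 1 and 2, which go with the scaling targets. P-values rest on the spread between these arrays only, and limma draws the spread of each probe set towards that of probe sets of like level. With the block, the standard error was 0.11 for Def6 and 0.12 for Cd81, where the SD of their 2 differences was 0.00029 and 0.21. Such a standard error is thus not the spread of a gene of its own.

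The members and gene lists were chosen with earlier results of these data known. Named are all members with all probe sets, their listed paralogues, listed relatives called in a fit, Nrp1, and the 3 nearest profiles to Swap70 and Plagl1; the flanking genes, the chromosome 12 window, the markers and the other imprinted and opioid genes named were added after values were seen. A gene is represented by its probe set with the highest mean. Alternatives changed the normalisation, pseudocount, filter, block, variance trend, probe set rule and arrays. Some listed relatives are counted but not reported here. Sequences are RefSeq's (GRCm38.p6). Drawings used matplotlib 3.10.9.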

Additional observations from a re-analysis of the deposited data

How the results depend on the processing

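With the title of each array followed, the differences of the 9 genes stayed above 0 under every alternative run. Nrp1-negative replicate 1, whose labels conflict, had the lowest Nrp1 intensity of all arrays at every Nrp1 probe set. When Nrp1-negative replicate 1 was placed with the Nrp1-positive arrays, as its other labels read, Penk turned to −0.25, and the median of the 9 genes was 0.40 instead of 1.31; Swap70 was 0.70, Plagl1 0.25, Rad51b 0.27, Niban2 0.40, D430019H16Rik 0.59 and 2310015A10Rik 0.11. Over each array left out in turn the median ranged from 1.03 to 1.53, and the genes as follows: Swap70 0.91 to 1.34, Plagl1 1.07 to 2.48, Hmgn3 0.96 to 1.65, Rad51b 0.71 to 2.05, Niban2 1.03 to 1.90, Igsf3 0.79 to 1.55, Penk 0.19 to 1.34, D430019H16Rik 1.03 to 1.31 and 2310015A10Rik 0.83 to 2.61. The lowest values of Plagl1 and Penk came without Nrp1-negative replicate 1, and those of Rad51b and 2310015A10Rik without Nrp1-positive replicate 2. Such values keep 1 batch only in a group, so shifts between replicate numbers enter them. Niban1 ranged from 0.72 to 1.41 in the same way.

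With a pseudocount 4 times larger, Rad51b was 0.98, D430019H16Rik 0.89 and 2310015A10Rik 1.49, and with one 4 times smaller D430019H16Rik was 1.27. On the scaling targets as deposited D430019H16Rik was 1.07. With the mean over all probe sets of a gene, Plagl1 was 0.49, Rad51b 0.89 and 2310015A10Rik 1.09, since dimmer probe sets enter the mean. The replicate block raised the probe sets called by limma from 0 to 46, and to 140 with quantile normalisation, an alternative chosen after seeing the data. It raised the related genes called from 0 to 1 and 3. Without the mean-variance trend the block called 0, with 1515 at an unadjusted p below 0.05. Over arrays left out, 0 to 3 probe sets were called, the 3 without Nrp1-negative replicate 2, and 0 related genes. The causes were not tested. The number of arrays and, for probe sets near the filter, the signal over background limit all values.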
